A study of Mus musculus with 13 samples.

Results

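The miR-17-92 cluster is a single transcript that is cut into several mature microRNAs (miRNAs), and the values below are those of its 6 guide arms, the strands that are mainly loaded into the silencing complex. The members were named as the guide arms of this cluster, with no threshold on their values (mmu-miR-17-5p, mmu-miR-18a-5p, mmu-miR-19a-3p, mmu-miR-19b-3p, mmu-miR-20a-5p and mmu-miR-92a-3p), and make up 6 of the 1079 mouse miRNAs on the array. They were measured in flank tumors of male C57BL/6 mice after subcutaneous injection of 100000 B78H1 cells into each flank. B78H1 is an amelanotic murine melanoma line derived from B16 cells. The curcumin group (n = 7 tumors) was fed chow with 4% curcumin, a polyphenol of turmeric, and the control group (n = 6 tumors) was fed standard chow of the same batch. Both diets began 14 days before injection, and tumors were taken 28 days after it. All tumors came from 1 injected line, host cells that grow into a flank tumor were part of each RNA sample, and the age of the mice was not given in the sources used here. The comparison asks whether oral curcumin changed the miRNA profile of the tumors.

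A miRNA pairs with target mRNAs mainly through its seed, the bases near its 5′ end, and lowers their translation and stability. The miR-17-92 cluster is known as an oncogenic miRNA cluster: its transcription is raised by MYC and E2F factors, and its members repress brakes of cell growth and survival signaling such as Bcl2l11, Cdkn1a and Thbs1. The mouse genome also holds a pair of paralogous clusters, miR-106b-25 and miR-106a-363, whose miRNAs share the same seeds.

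The 6 guide arms fall into 4 seed families, shown here because the results are read by family. The sequences are those of RefSeq (GRCm38.p6), 5′ to 3′, and the capitals mark the seed, bases 2 to 8. The first pair belongs to the miR-17 family, which also contains miR-20b, miR-93 and miR-106b from the paralogous clusters.
mmu-miR-17-5p: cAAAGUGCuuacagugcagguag
mmu-miR-20a-5p: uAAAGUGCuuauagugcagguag
mmu-miR-20b-5p: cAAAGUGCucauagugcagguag
mmu-miR-93-5p: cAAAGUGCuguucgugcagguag
mmu-miR-106b-5p: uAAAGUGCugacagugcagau

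The miR-18 seed differs from that of the miR-17 family by a single base, and mmu-miR-18a-5p was its only member detected on all arrays.
mmu-miR-18a-5p: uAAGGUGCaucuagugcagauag

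The miR-19 family has a seed of its own, and its members in the cluster differ from each other in 1 of 23 bases.
mmu-miR-19a-3p: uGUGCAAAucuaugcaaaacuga
mmu-miR-19b-3p: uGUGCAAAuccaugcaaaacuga

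The miR-92 family includes mmu-miR-25-3p of the miR-106b-25 cluster.
mmu-miR-92a-3p: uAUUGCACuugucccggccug
mmu-miR-25-3p: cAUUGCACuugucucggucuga

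In GRCm38.p6 the 6 hairpins lie on the plus strand within 836 bases, chr14:115043671-115044506, in the order Mir17, Mir18, Mir19a, Mir20a, Mir19b-1 and Mir92-1. The first of them, Mir17 (chr14:115043671-115043754), is shown because both of its arms, in capitals, were detected on all arrays and are compared below.
Mir17: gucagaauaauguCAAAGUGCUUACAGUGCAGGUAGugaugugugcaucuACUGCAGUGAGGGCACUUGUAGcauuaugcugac

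The mature mmu-miR-19b-3p and mmu-miR-92a-3p are also encoded on chromosome X, as Mir19b-2 and Mir92-2, so their signal cannot be assigned to 1 of the 2 loci. The pairs within a family are close in sequence. Of 23 bases, mmu-miR-17-5p and mmu-miR-20a-5p differ in 2, and mmu-miR-20a-5p and mmu-miR-20b-5p also differ in 2. mmu-miR-106a-5p, which has no row of its own on the array, differs from mmu-miR-17-5p in 1 of 23. How much of each signal came from such a relative bound to the same probes was not tested.

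Each tumor was hybridized in 1 color to 1 array, and the sum of the signals of the probes of a miRNA is its intensity. The summed intensity of an array ranged from 114095 to 281508 (median 205110) in curcumin-treated tumors and from 150272 to 244666 (median 171250) in controls, with 272 to 370 and 313 to 412 miRNAs detected. The arrays sat on 2 slides, with 3 curcumin and 2 control tumors on slide 1 and 4 of each on slide 2. On both slides all controls were in line 1 and all curcumin-treated tumors in line 2, so that array line and diet cannot be told apart. Levels below are log2 of quantile-normalized intensities and are compared between tumors for 1 miRNA at a time, since each miRNA has its own probes. All 6 guide arms were detected on all 13 arrays, no spot was saturated, and the software's error of a signal was between 7.25% and 10.6%.

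The guide arms 18a, 19a, 19b, 20a and 92a were lower in curcumin-treated tumors than in controls, by 0.53 to 1.46 on the log2 scale, and mmu-miR-17-5p did not pass the test. In counts, 5 of 6 passed an adjusted p of 0.05 in the lower direction and 0 in the higher direction (limma, Benjamini-Hochberg over 1079 miRNAs). At an unadjusted p below 0.05, 6 were lower and 0 higher. Of all 1079 miRNAs, 15.8% passed in either direction and 7.51% in the lower direction. Among the 243 miRNAs detected on all arrays the lower share was 21.4%. The guide arms had a median log2 fold change of -0.95, against -0.09 for the 243 detected miRNAs. In such bulk tumor RNA, fewer cells that carry the cluster's miRNAs and less of them per cell cannot be told apart.

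mmu-miR-18a-5p, which represses components of TGF-β signaling such as Smad4, had the largest fold change of the 6. Its log2 level was 5.76 at the lowest, 6.25 at the median and 7.54 at the highest in curcumin-treated tumors, against 7.31, 7.92 and 8.01 in controls. In 6 of 7 curcumin-treated tumors the level lay below every control, and the groups met only through curcumin tumor 5. The mean was 6.31 ± 0.60 (SD, n = 7) with curcumin and 7.77 ± 0.30 (SD, n = 6) with standard chow. The log2 fold change was therefore -1.46 (SE 0.27, limma adjusted p = 0.00500), and an exact permutation test, two-sided, that enumerated the 1716 possible divisions of the tumors gave p = 0.0023.

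The miR-19 pair, which is known for its part in the oncogenic activity of the cluster, was lowered in both members. mmu-miR-19a-3p ranged from 6.08 through a median of 6.26 to 6.81 in curcumin-treated tumors and from 6.69 through 7.27 to 7.45 in controls. mmu-miR-19b-3p ranged from 8.71 through 9.08 to 9.78 in curcumin-treated tumors and from 9.42 through 10.24 to 10.44 in controls. In both cases 6 of 7 curcumin-treated tumors were below the lowest control. The log2 fold change was -0.89 for mmu-miR-19a-3p (SE 0.14, limma adjusted p = 0.00348, exact permutation p = 0.0017). For mmu-miR-19b-3p it was -1.01 (SE 0.20, limma adjusted p = 0.00655, exact permutation p = 0.0017). Both calls were lost when the 75th percentile over all miRNAs set the scale (-0.87, adjusted p = 0.0608, and -0.61, adjusted p = 0.206).

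The miR-17 family pair, which represses the cell cycle inhibitor Cdkn1a, was more scattered. Levels of mmu-miR-20a-5p were 8.63, 9.08 and 10.12 (lowest, median, highest) in curcumin-treated tumors and 9.24, 10.50 and 10.64 in controls. Again 6 of 7 curcumin-treated tumors lay below all controls, with a log2 fold change of -1.13 (SE 0.28, limma adjusted p = 0.0196, exact permutation p = 0.0047). When the 75th percentile over all miRNAs set the scale it was -0.65 and did not pass (adjusted p = 0.267). Levels of mmu-miR-17-5p were 4.27, 4.52 and 5.76 in curcumin-treated tumors and 4.44, 5.78 and 5.93 in controls. Only 1 curcumin-treated tumor was below the lowest control, because control tumor 5 lay among the treated tumors. The log2 fold change was -0.79 (SE 0.30), which did not pass over all miRNAs (limma adjusted p = 0.102), while the exact permutation test of this 1 miRNA gave p = 0.0286. With normexp background correction it was -0.28 (adjusted p = 0.0749). The call turned on single tumors: without curcumin tumor 5 the limma adjusted p was 0.0287, and without control tumor 5 it was 0.0231.

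mmu-miR-92a-3p, from the last hairpin of the cluster and known for its role in vessel growth, had the smallest fold change. It ranged from 7.75 through a median of 8.11 to 8.79 in curcumin-treated tumors and from 8.30 through 8.71 to 8.83 in controls. Here too 6 of 7 treated tumors were below the lowest control, and curcumin tumor 5 was near the top of the control range. The log2 fold change of -0.53 (SE 0.15) had a limma adjusted p of 0.0377 and an exact permutation p of 0.0082. This call was lost in 11 of the 13 fits that left out 1 tumor each (highest adjusted p 0.0768), and held only without curcumin tumor 5 or without control tumor 5. It was also lost when each array was scaled to the 75th percentile of the detected miRNAs (-0.41, adjusted p = 0.149), to that of all miRNAs (-0.20, adjusted p = 0.883) or not normalized at all (-0.42, adjusted p = 0.215).

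**Figure D1:**
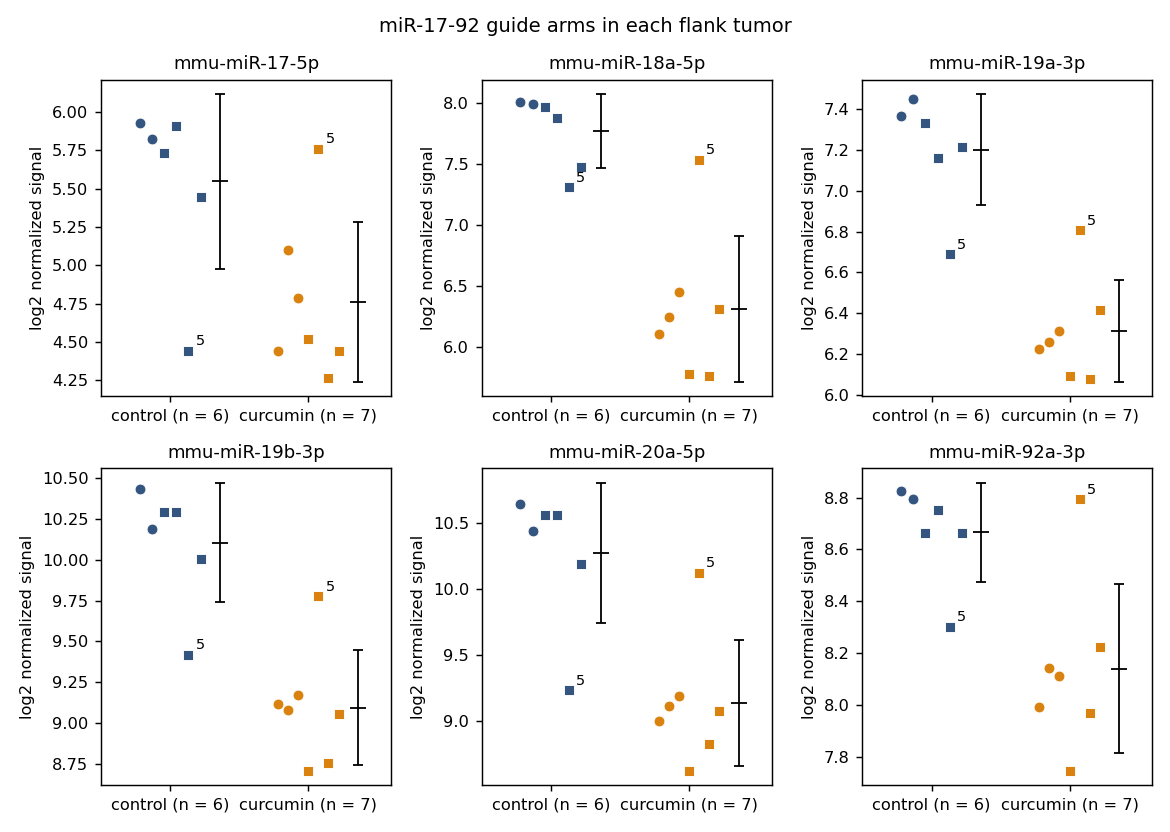
Log2 quantile-normalized signal (y axis) of each of the 6 guide arms in control (blue, n = 6) and curcumin-treated (orange, n = 7) tumors; circles are slide 1, squares slide 2, black bars the mean ± SD, and the digit marks tumor 5 of each group. For 5 guide arms 6 of 7 curcumin-treated tumors lie below every control, and the tumors marked 5 lie between or beyond the groups.

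The means over all tumors put the level in controls over that with curcumin at 2.75-fold for mmu-miR-18a-5p and 2.19-fold for mmu-miR-20a-5p. The same ratio was 2.02 for mmu-miR-19b-3p, 1.85 for mmu-miR-19a-3p, 1.73 for mmu-miR-17-5p and 1.44 for mmu-miR-92a-3p. The direction was the same on each slide. On slide 1 none of the 6 guide arms overlapped between diets, with log2 differences from -1.73 (mmu-miR-18a-5p) to -0.73 (mmu-miR-92a-3p). With only 3 against 2 tumors there, curcumin lay wholly below control for 14.9% of the 1079 miRNAs and 34.6% of the 243 detected ones. Over both slides, where 0 of the 6 were free of overlap, the shares were 1.39% and 3.7%. On slide 2, which holds both tumors numbered 5, all 6 overlapped, with differences from -1.31 (mmu-miR-18a-5p) to -0.41 (mmu-miR-92a-3p), and 0 of the 6 passed in a limma fit of that slide alone (3 at an unadjusted p below 0.05).

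Each guide arm was read by 2 probes of 20 spots each. All 12 probes were lower in curcumin-treated tumors, with log2 fold changes between -1.49 and -0.25. In a limma fit of the 2754 mouse probes, in which 4.28% passed in the lower direction, both probes passed for mmu-miR-18a-5p, mmu-miR-19a-3p, mmu-miR-19b-3p and mmu-miR-20a-5p. Neither probe of mmu-miR-17-5p passed (-0.80 and -0.73, adjusted p = 0.150 and 0.120), and neither of mmu-miR-92a-3p did (-0.25 and -0.48, adjusted p = 0.544 and 0.0805).

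The other arm of the hairpins gives a readout of the same transcript. Of the 6 partner arms on the array, 1 was detected throughout and 3 nowhere, and 0 of 6 passed in either direction (limma). At an unadjusted p below 0.05, 1 did (mmu-miR-18a-3p), and with the methods' t-test 0 did after adjustment. mmu-miR-17-3p, the partner of mmu-miR-17-5p in the hairpin shown above, ranged from 4.86 through 5.12 to 5.72 in curcumin-treated tumors and from 4.60 through 5.61 to 5.78 in controls. The groups overlapped, with a log2 fold change of -0.28 (SE 0.21, 95% interval -0.74 to 0.19, limma adjusted p = 0.577). mmu-miR-18a-3p was detected in 6 of 6 controls and in 0 of 7 curcumin-treated tumors. By the group means it was 1.71-fold higher in controls, a point estimate with the curcumin arrays taken at their own signals, not marked as detected. It did not pass with quantile-normalized values (limma adjusted p = 0.149). With only detected probes summed, its log2 fold change was -0.26 (limma adjusted p = 0.934). Its log2 fold change of -0.77 depended on the processing. In the deposited values, per the methods also quantile normalized, it was -0.084 (limma adjusted p = 0.713). Without normalization it was -1.20 (adjusted p = 0.0126). With the 75th percentile of detected or of all miRNAs it was -1.19 and -0.97 (adjusted p = 0.00304 and 0.0146). Without curcumin tumor 5 and control tumor 5, chosen for their guide arm values as described below, mmu-miR-17-3p was at -0.54 (limma adjusted p = 0.0150) and mmu-miR-18a-3p at -1.13 (adjusted p = 0.00844). mmu-miR-20a-3p was detected in 1 tumor of each group, and mmu-miR-19a-5p, mmu-miR-19b-1-5p and mmu-miR-92a-1-5p in none.

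Among the 9 other miRNAs on the array that share a seed with a guide arm, 4 were detected on all arrays, 3 passed in the lower direction and 0 in the higher direction, beside 7.51% lower among all miRNAs and 21.4% among those detected. The count was 0 to 6 over the other settings of the processing. The 3 were all products of the paralogous clusters. mmu-miR-20b-5p of the miR-106a-363 cluster had a log2 fold change of -0.82 (SE 0.19, limma adjusted p = 0.0142), with levels from 7.42 to 8.63 in curcumin-treated tumors and from 8.11 to 8.83 in controls. mmu-miR-25-3p had -0.67 (SE 0.17, adjusted p = 0.0250), with levels from 7.91 to 8.88 against 8.35 to 9.08. mmu-miR-93-5p had -0.72 (SE 0.21, adjusted p = 0.0401), with levels from 8.22 to 9.17 against 8.48 to 9.66. In each of these the groups overlapped, and 5 or 6 of 7 curcumin-treated tumors were below the lowest control. The call of mmu-miR-20b-5p held in all 13 fits that left out 1 tumor. That of mmu-miR-25-3p was lost without control tumor 1, 2 or 4 or curcumin tumor 6, and that of mmu-miR-93-5p held only without control tumor 5, control tumor 6 or curcumin tumor 5. mmu-miR-25-3p and mmu-miR-93-5p were also lost after scaling to detected miRNAs (adjusted p = 0.0532 and 0.0613) and without normalization (adjusted p = 0.0911 and 0.0549). All 3 were lost when the 75th percentile over all miRNAs set the scale, under which only mmu-miR-18a-5p of the 6 guide arms passed.

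mmu-miR-106b-5p, which is made from the same hairpin cluster as mmu-miR-25-3p and mmu-miR-93-5p, was the exception. Its level lay between 8.83 and 9.35 in curcumin-treated tumors and between 8.83 and 9.61 in controls. The log2 fold change was -0.20 (SE 0.12, 95% interval -0.47 to 0.06, limma adjusted p = 0.374). Whether it differed from that of its cluster neighbors was not tested. In all, 2 of 3 miR-106b-25 products passed, and 1 of the 3 miR-106a-363 products counted here (mmu-miR-18b-5p, mmu-miR-20b-5p and mmu-miR-363-3p). Those that passed are the 3 above, beside 7.51% lower among all miRNAs and 21.4% among those detected on all arrays. The count leaves out mmu-miR-19b-3p and mmu-miR-92a-3p, which passed as guide arms and, like mmu-miR-20b-5p, are encoded on chromosome X. mmu-miR-363-3p was detected on no array, and mmu-miR-18b-5p in 0 of 7 curcumin-treated and 1 of 6 control tumors. Of these 3 products only mmu-miR-20b-5p was detected on all arrays. mmu-miR-32-5p, of the miR-92 family, was detected in 1 of 7 curcumin-treated and 6 of 6 control tumors (-1.08, SE 0.34, adjusted p = 0.0551). Its limma call depended on the setting. It passed when scaled to detected miRNAs (-1.34, adjusted p = 0.00304) or to all miRNAs (-1.13, 0.0319). Without normalization (-1.36, 0.0217) and in the deposited values (-0.48, 0.0493) it also passed. It did not pass with normexp (-0.060, 0.0776), the slide as a block (-1.12, 0.0565) or only detected probes summed (-1.08, 0.0576).

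**Figure D2:**
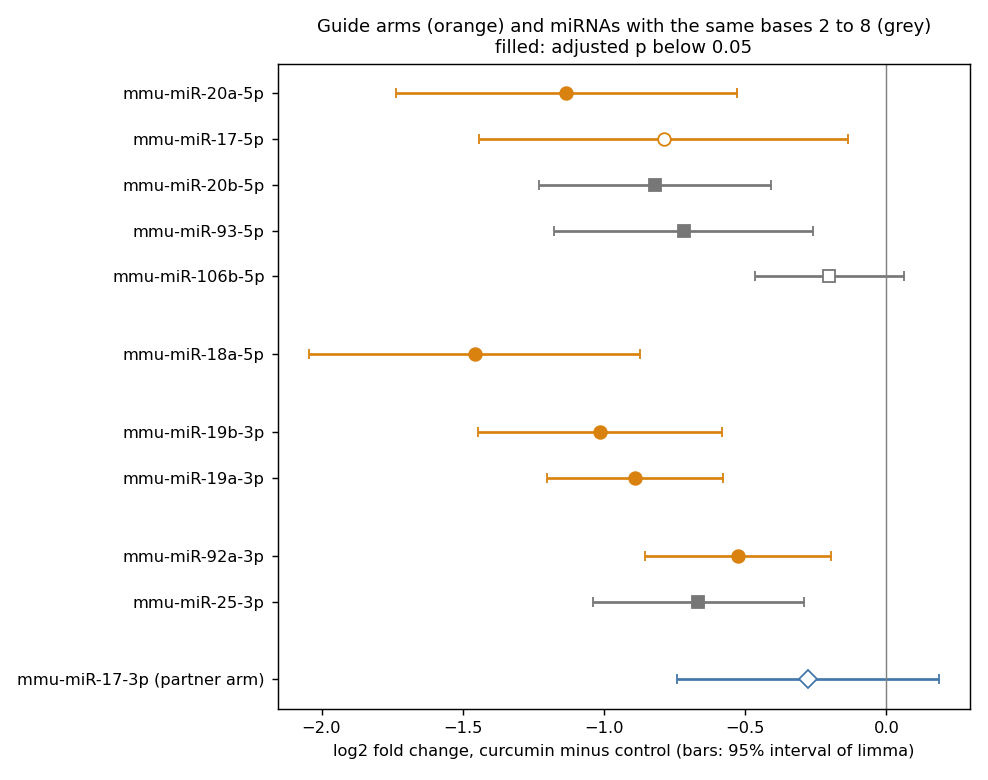
Log2 fold change, curcumin minus control (x axis), with the 95% interval of limma, for the guide arms (orange circles), the miRNAs with the same bases 2 to 8 (grey squares) and the partner arm mmu-miR-17-3p (blue diamond), for those detected on all 13 arrays; filled symbols have an adjusted p below 0.05. With quantile-normalized values all 11 point estimates lie below 0 (mmu-miR-106b-5p was at 0.043 when scaled to all miRNAs), and the intervals of mmu-miR-106b-5p and mmu-miR-17-3p reach it.

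The ratio of 2 guide arms within the same tumor shows whether they changed by different amounts. All 15 pairs were compared with the exact permutation test (two-sided, Benjamini-Hochberg over the 15), and 9 passed. mmu-miR-18a-5p was lowered more than each of the other 5, except that with normexp background correction its difference from mmu-miR-20a-5p was 0.048 in the other direction. The log2 ratio of mmu-miR-17-5p to mmu-miR-18a-5p differed by 0.67, curcumin minus control (exact permutation adjusted p = 0.00437). That of mmu-miR-18a-5p to mmu-miR-92a-3p differed by -0.93 (exact permutation adjusted p = 0.00437). With quantile-normalized values neither ratio overlapped between the diets, but before normalization the first did. mmu-miR-92a-3p was lowered less than mmu-miR-18a-5p, mmu-miR-19a-3p (-0.36), mmu-miR-19b-3p (-0.49) and mmu-miR-20a-5p (-0.61). The exact permutation adjusted p of the last 3 was 0.00437, 0.00437 and 0.0131.

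Within a seed family the outcome depended on the scaling. With quantile-normalized values the log2 fold change of mmu-miR-17-5p was smaller than that of mmu-miR-20a-5p by 0.35 (exact permutation adjusted p = 0.0131), and mmu-miR-19a-3p and mmu-miR-19b-3p differed by 0.12 (adjusted p = 0.216). With signals before normalization, where no scaling factor enters a ratio, the first difference was -0.081 (exact permutation adjusted p = 0.270). The second was then -0.26 (adjusted p = 0.00971), mmu-miR-19a-3p being lowered more. Both differences changed sign, so no order within either family was kept.

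Between families 6 of the 15 differences passed in each of 9 other settings that used both slides, and in all 13 fits that left out 1 tumor. These were mmu-miR-18a-5p against mmu-miR-17-5p, mmu-miR-19a-3p and mmu-miR-92a-3p, and mmu-miR-92a-3p against mmu-miR-19a-3p, mmu-miR-19b-3p and mmu-miR-20a-5p. The 9 settings are not separate checks. No normalization and both 75th percentile scalings give the same ratios, and a floor of 1 leaves the guide arms unchanged. The setting without both tumors 5 was chosen from the guide arm values. The log2 ratio of mmu-miR-18a-5p to mmu-miR-92a-3p before normalization went from -2.44 through a median of -2.09 to -1.18 in curcumin-treated tumors and from -1.03 through -0.87 to -0.79 in controls. That of mmu-miR-19b-3p to mmu-miR-92a-3p went from 0.78 through 0.87 to 1.00 in curcumin-treated tumors and from 1.23 through 1.30 to 1.34 in controls. The diets did not overlap in either ratio, curcumin tumor 5 included. Only the change of such a ratio between tumors can be read, since the 2 miRNAs have different probes.

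**Figure D3:**
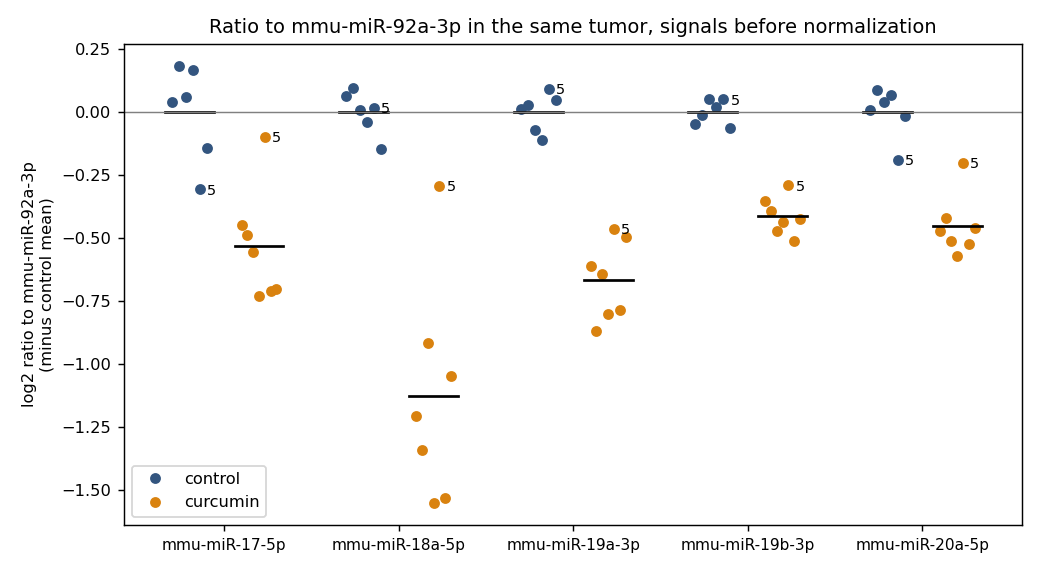
Log2 ratio of 5 guide arms to mmu-miR-92a-3p in the same tumor, from signals before normalization and minus the mean of the 6 controls (y axis), in control (blue) and curcumin-treated (orange) tumors; black lines are group means and the digit marks tumor 5. All but the ratio of mmu-miR-17-5p are lower in each of the 7 curcumin-treated tumors than in each control.

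The 6 guide arms were also followed tumor by tumor. The mean of the 6 log2 levels, set against its mean in controls, was -1.11, -0.94, -0.92, -1.35, -0.13, -1.32 and -1.01 in curcumin tumors 1 to 7. In control tumors 1 to 6 it was 0.27, 0.19, 0.17, 0.17, -0.70 and -0.10. Curcumin tumor 5 was thus at the level of the controls, and control tumor 5 was the lowest of its group and still above 6 of the 7 treated tumors. Curcumin tumor 5 was the highest of its group in 6 of 6 guide arms, and control tumor 5 the lowest of its group in 6 of 6.

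The place of these 2 tumors differed between the scalings of the arrays. Curcumin tumor 5 had the dimmest array of the study (summed intensity 114095, 272 miRNAs detected) and control tumor 5 the brightest control array (244666, 412 detected). Without normalization the mean of the guide arms was -1.07 in curcumin tumor 5 and 0.05 in control tumor 5, both within their groups. Scaled to the 75th percentile of the detected miRNAs it was 0.11 and -0.53, and scaled to that of all miRNAs 0.35 and -0.97. In ratios, which no scaling factor enters, curcumin tumor 5 was still the highest of its group for all 5 guide arms over mmu-miR-92a-3p. For mmu-miR-18a-5p its log2 ratio before normalization was -1.18, against -2.44 to -1.80 in the other 6 treated tumors. Control tumor 5 had the lowest ratio of its group for mmu-miR-17-5p (-3.28) and mmu-miR-20a-5p (1.16) and the highest for mmu-miR-19a-3p (-1.24). For mmu-miR-18a-5p (-0.87) and mmu-miR-19b-3p (1.34) it lay within the range of the other controls. Before normalization, mmu-miR-18a-5p had an intensity of 48.2 to 93.8 in curcumin-treated tumors and 149 to 304 in controls. mmu-miR-19a-3p had 59.2 to 93.2 and 118 to 213, and neither overlapped. The other 4 guide arms overlapped, for example mmu-miR-19b-3p with 423 to 780 and 716 to 1273. Curcumin lay wholly below control on this scale for 3.06% of all miRNAs and 9.05% of those detected. These 2 tumors had been picked out because their guide arm values went against the diet difference, so the values without them are larger by that choice and are a description only. With both left out, 6 of 6 guide arms passed in the lower direction, beside 8.53% of all miRNAs and 30% of those detected, whose median log2 fold change was then -0.25. The guide arms had log2 fold changes from -1.75 (mmu-miR-18a-5p) to -0.71 (mmu-miR-92a-3p) and of -1.18 for mmu-miR-17-5p. Of the 9 seed-sharing miRNAs, 4 passed without these tumors and 3 with them.

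**Figure D4:**
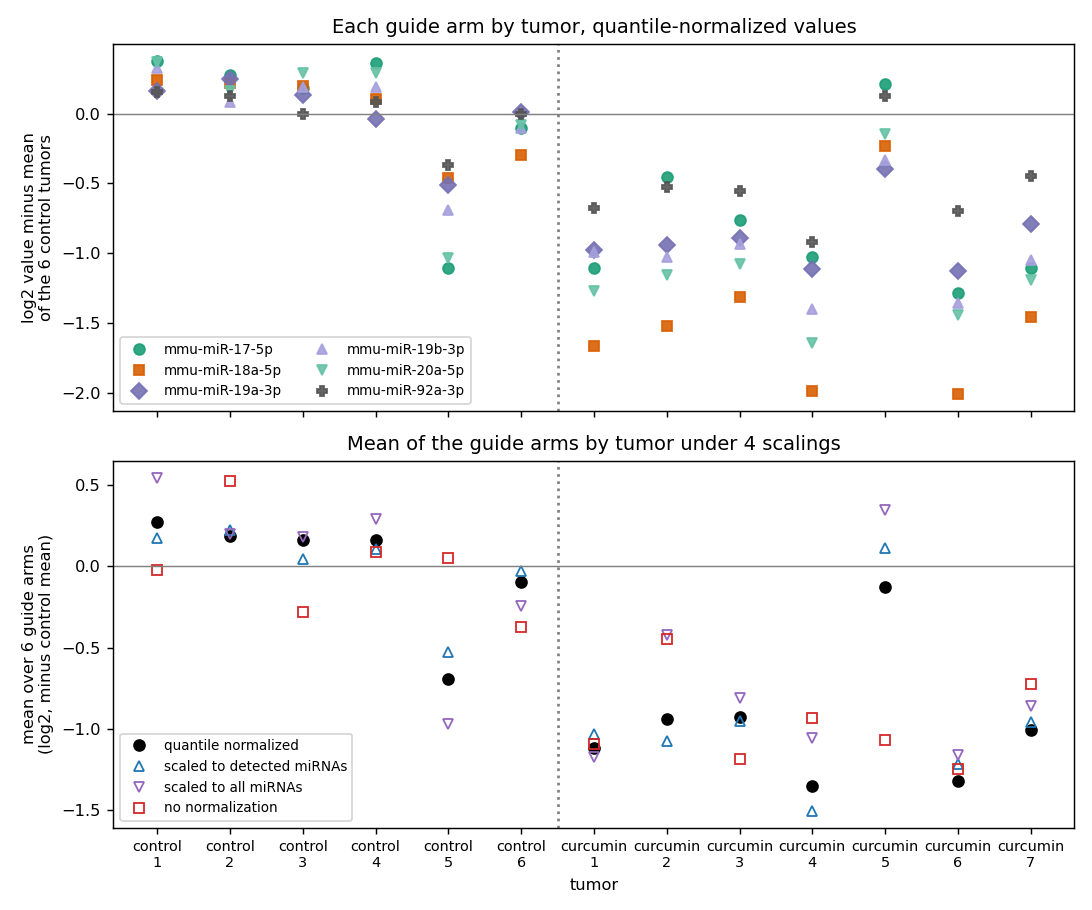
Upper panel: log2 level of each guide arm in each of the 13 tumors minus its mean in the 6 controls, quantile normalized. Lower panel: the mean over the 6 guide arms under 4 scalings. Curcumin tumor 5 lies at -0.13 with quantile normalization and at -1.07 without normalization, and control tumor 5 at -0.70 and 0.05.

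Cell type markers differed between the same tumors. The summed level of 4 hematopoietic miRNAs, all called higher, was 342 to 1347 in curcumin-treated tumors and 84.4 to 286 in controls on the linear normalized scale. For 3 fibroblast miRNAs (2 called higher) it was 419 to 982 against 73.5 to 311, and for 6 epithelial miRNAs (1 called higher, and the defining mmu-miR-200a-3p, mmu-miR-200b-3p, mmu-miR-200c-3p and mmu-miR-141-3p detected in no tumor) 218 to 1739 against 3.11 to 165. The 2 melanocytic miRNAs went the other way, 4.19 to 624 against 308 to 847, with 1 of 2 called lower. Curcumin tumor 5 had the highest melanocytic sum of its group (624) and the lowest hematopoietic (342), fibroblast (419) and epithelial (218) sums. The 2 endothelial miRNAs (254 to 820 against 137 to 281, 0 called) and the 3 muscle miRNAs on the array (27.4 to 543 against 21.6 to 372, 1 called higher) overlapped. In these sets curcumin tumor 5 was not the lowest of its group: its endothelial sum was the group median (321) and its muscle sum the highest (543). The part of cell makeup in the levels of the guide arms was not tested.

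Within a diet, the log2 ratio varied less than either guide arm in 11 of 15 pairs. Pairs of other miRNAs were not compared, and a shift of a whole array cancels in any ratio. The count is therefore a description and does not show that the cluster varied together. The SD within diets was 0.26 for mmu-miR-19a-3p, 0.27 for mmu-miR-92a-3p, 0.36 for mmu-miR-19b-3p, 0.49 for mmu-miR-18a-5p, 0.50 for mmu-miR-20a-5p and 0.54 for mmu-miR-17-5p, beside a median of 0.40 over the 243 detected miRNAs. The SD of the log2 ratio of 2 members was 0.11 for mmu-miR-19a-3p to mmu-miR-92a-3p, 0.16 for mmu-miR-19b-3p to mmu-miR-20a-5p and 0.18 for mmu-miR-17-5p to mmu-miR-20a-5p. In 4 pairs, all with mmu-miR-17-5p or mmu-miR-19a-3p, it was above that of 1 member, up to 0.34 for mmu-miR-17-5p to mmu-miR-92a-3p. Without curcumin tumor 5, the SD of mmu-miR-20a-5p in curcumin-treated tumors was 0.21, against 0.48 with it.

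The profile of the cluster over the tumors was compared with those of the other detected miRNAs by the root mean square difference of centered log2 levels, where 0 is an identical profile and the median over 243 miRNAs was 0.65. Of the non-members, mmu-miR-20b-5p was the closest at 0.15, followed by mmu-miR-5097 and mmu-miR-25-3p (both 0.19), mmu-miR-93-5p and mmu-miR-362-3p (both 0.20). Of these 5, 3 carry a seed of the cluster, as do 4 non-members among all 243. The 3 are those already called lower above, so their closeness is not a separate result. The members themselves, which enter the mean profile, were between 0.077 (mmu-miR-19b-3p) and 0.29 (mmu-miR-18a-5p). Among the 243 miRNAs, mmu-miR-17-5p, mmu-miR-92a-3p and mmu-miR-18a-5p held places 9, 15 and 20. They came after all 5 non-members named, mmu-miR-5097 and mmu-miR-362-3p included, so the profile was not particular to the cluster. All values describe the same 13 tumors, of which the diets make up 2 sets.

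MYC, which activates the cluster, is also known to lower a set of other miRNAs, and 22 of these were on the array (21 detected on all arrays). Of the 22, 10 passed in the higher direction, where the share among all miRNAs was 8.34% (20.2% of those detected on all arrays), 2 in the lower direction and 10 in neither, with a median log2 fold change of 0.59 over the 22 and of 0.27 over the 21 detected on all arrays. The miR-29 members mmu-miR-29b-3p (1.64, SE 0.28, limma adjusted p = 0.00380) and mmu-miR-29a-3p (1.52, SE 0.24, adjusted p = 0.00348) and mmu-miR-22-3p (1.91, SE 0.31, adjusted p = 0.00348) were among the 10. The 2 lower were mmu-miR-30b-5p (-0.43, SE 0.12, adjusted p = 0.0377) and mmu-miR-30e-5p (-0.46, SE 0.13, adjusted p = 0.0401). None of the 3 let-7 members listed passed, with log2 fold changes of 0.14 (mmu-let-7a-5p), -0.07 (mmu-let-7d-5p) and -0.28 (mmu-let-7g-5p), and mmu-miR-34a-5p was at -0.74 (SE 0.25, adjusted p = 0.0663). The list also holds mmu-miR-150-5p, which is among the hematopoietic markers above, and the level of MYC itself was not measured here. Without normalization between arrays 0 of the 22 passed in limma, with 9 higher and 3 lower at an unadjusted p below 0.05. The 2 lower calls were both lost in 9 of the 13 fits that left out 1 tumor.

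**Figure D5:**
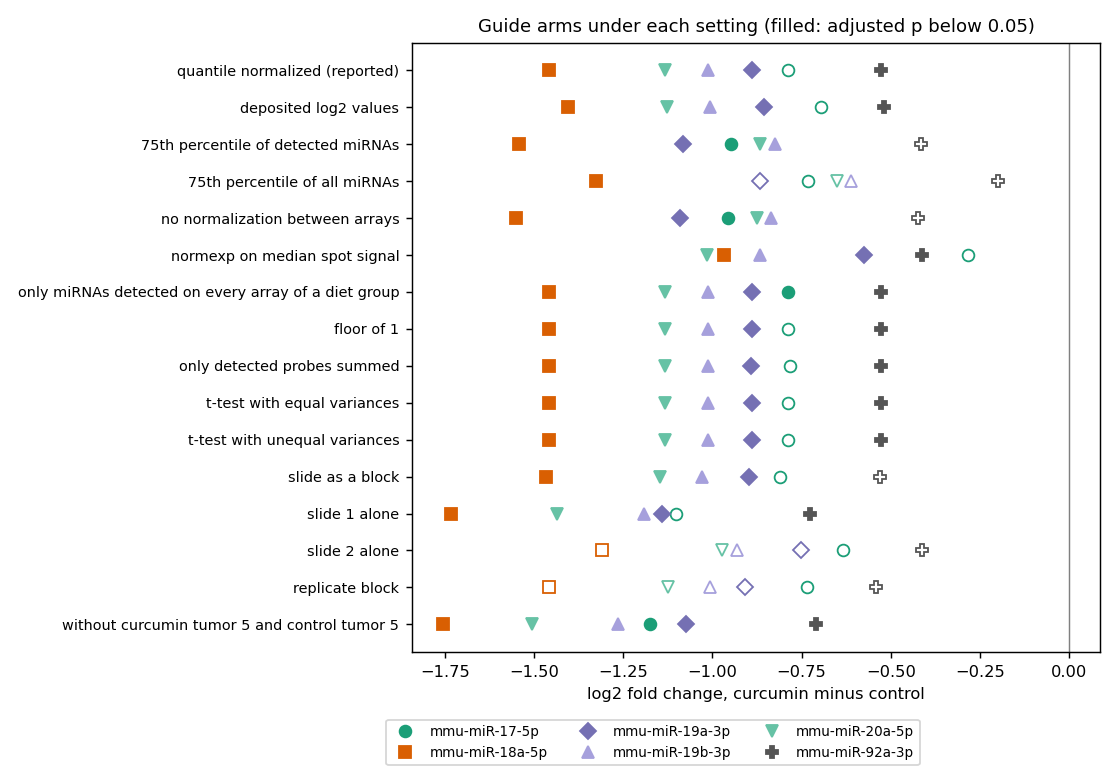
Log2 fold change, curcumin minus control (x axis), of the 6 guide arms under each setting of the processing (y axis, the reported one at the top); filled symbols have an adjusted p below 0.05. Every value is below 0, from -1.75 to -0.20, and mmu-miR-18a-5p is unfilled only for slide 2 alone and for the fit with replicate number as a block.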

How the data were processed

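RNA of 13 B78H1 flank tumors (7 curcumin diet, 6 control) had been hybridized to 1-color Agilent miRNA arrays, 1 per tumor, grouped by the sample labels. Per the file headers, the deposited intensity values were made with Feature Extraction 10.10.1.1, background subtracted and not normalized between arrays, on a design built on mm9. The authors also deposited log2 values, which per the methods are quantile-normalized sums of probe signals. The array number limits the precision.

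Here the probe signals of each of 1079 mouse miRNAs were summed, quantile normalized over 13 arrays, set to a floor of 0.00765 where at or below 0 (51.4% of values, none of a guide arm) and log2 transformed. Quantile normalization gives equal ranks equal values, forces 1 distribution on all arrays and can change the ratio of 2 miRNAs. The diets were compared with limma 3.58.1 (R 4.3.3, two-sided, no covariate) with Benjamini-Hochberg adjustment over all miRNAs and a threshold of 0.05. Single miRNAs and ratios were tested with exact permutation tests (smallest p 0.000583).

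The miRNAs named are the guide arms, their partner arms, those with the same bases 2 to 8, the paralogous clusters, the 5 non-members with the closest profile, and examples of the MYC-lowered list. Members and lists were chosen with earlier results of these data known. Sequences came from RefSeq, where 840 of 1079 names matched. Per the methods, mice were housed in groups with free access to their chow, and cells were injected into each flank. The sample labels do not tie the tumors to cages, litters or mice, so cage and diet cannot be told apart. The p-values treat tumors as separate units and measure only the spread between these tumors. Replicate numbers did not pair the tumors (correlations of same-numbered deviations -0.30 to 0.20). The annotated start of the host gene Mir17hg lies after the start of 5 of the 6 hairpins, so its promoter window was not used. Alternatives were other scalings, floors, filters, probe summaries, tests and slides, leaving out tumors, and normexp background correction. Normexp was run on the median spot signal after seeing the data, with an offset of 50 added to each signal. Such an offset makes log2 differences smaller, more so for dim miRNAs than for bright ones. Leaving out both tumors 5, and following single tumors through the scalings, were also chosen after seeing the data.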

Additional observations from a re-analysis of the deposited data

Results flagged for a closer look

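In 12 groups of tumors (6 guide arms, 2 diets), the gap between an extreme tumor and its nearest neighbor was above Dixon's 95% limit in 6. Chance gives this in about 1 in 20 groups, and the 6 guide arms share their tumors, so these are not separate events. Of these, 3 involve curcumin tumor 5 as the highest of its diet: mmu-miR-18a-5p at 7.54, mmu-miR-19b-3p at 9.78 and mmu-miR-20a-5p at 10.12 (log2 levels). The other 3 involve control tumor 5 as the lowest of its diet: mmu-miR-17-5p at 4.44, mmu-miR-20a-5p at 9.24 and mmu-miR-92a-3p at 8.30. The cause was not tested.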

How the results depend on the processing

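No guide arm changed its direction under any setting. With all 171 miRNAs called as reported, 105 were called when the 75th percentile over all miRNAs set the scale, 49 without normalization, 34 on slide 1 alone and 3 on slide 2 alone. Of the guide arms, 1, 5, 5 and 0 passed there. Leaving out 1 tumor gave 103 to 184 miRNAs and 4 to 6 guide arms, with 103 without control tumor 4 or curcumin tumor 6, 107 without control tumor 2, 111 without curcumin tumor 1 and 112 without curcumin tumor 2.

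For mmu-miR-17-5p the log2 fold change passed after scaling to detected miRNAs (-0.95, adjusted p = 0.0462), without normalization (-0.96, 0.0196), among detected miRNAs only (-0.79, 0.0338) and without both tumors 5 (-1.18), which were chosen for their guide arm values. It was -1.01 to -0.71 with 1 tumor left out. With normexp it was -0.28 (0.0749), and mmu-miR-18a-5p (-0.97) and mmu-miR-19a-3p (-0.58) were smaller and passed. When the 75th percentile over all miRNAs set the scale, the adjusted p rose to 0.0608 for mmu-miR-19a-3p (-0.87), 0.206 for mmu-miR-19b-3p (-0.61), 0.267 for mmu-miR-20a-5p (-0.65) and 0.883 for mmu-miR-92a-3p (-0.20). On slide 2 alone the values were -1.31 for mmu-miR-18a-5p, -0.75 for mmu-miR-19a-3p, -0.93 for mmu-miR-19b-3p, -0.97 for mmu-miR-20a-5p and -0.41 for mmu-miR-92a-3p, none past the threshold with 8 tumors. mmu-miR-92a-3p was also lost after scaling to detected miRNAs (-0.41), without normalization (-0.42) and with the slide as a block (-0.53, adjusted p = 0.0511), and was -0.64 to -0.46 with 1 tumor left out. With 1 tumor left out, mmu-miR-18a-5p (-1.66 to -1.37), mmu-miR-19a-3p (-0.99 to -0.84), mmu-miR-19b-3p (-1.15 to -0.95) and mmu-miR-20a-5p (-1.34 to -1.05) passed in all 13 fits.

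The replicate numbers did not pair the tumors, and 0 of 6 controls correlated best with its own number. With replicate number as a block 67 miRNAs and 0 guide arms passed in limma (5 guide arms at an unadjusted p below 0.05). The log2 fold changes of the block were -1.46 (adjusted p = 0.0621) for mmu-miR-18a-5p, -0.91 (0.0583) for mmu-miR-19a-3p, -1.01 (0.0932) for mmu-miR-19b-3p, -1.12 (0.167) for mmu-miR-20a-5p and -0.54 (0.204) for mmu-miR-92a-3p.

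Of the 15 differences between guide arms 9 to 12 passed with 1 tumor left out, and 0 on slide 1 alone and 0 on slide 2 alone, where few splits exist. Signs turned before normalization and under both 75th percentile scalings, which cancel in a ratio, for mmu-miR-17-5p against mmu-miR-19b-3p (-0.12) and mmu-miR-20a-5p (-0.081) and for mmu-miR-19a-3p against mmu-miR-19b-3p (-0.26) and mmu-miR-20a-5p (-0.22). With normexp they turned for mmu-miR-17-5p against mmu-miR-92a-3p (0.13) and mmu-miR-18a-5p against mmu-miR-20a-5p (0.048). mmu-miR-17-5p against mmu-miR-19a-3p turned to -0.10 without both tumors 5, and ranged from -0.016 (without control replicate 5) to 0.18 with 1 tumor left out. The cause of these changes was not tested.

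Of the seed-sharing miRNAs 0 to 6 of 9 passed over the settings. The deposited log2 values gave 226 miRNAs, normexp 242, the methods' t-test 216 (equal variances) and 193 (unequal variances). The median log2 fold change of the 243 detected miRNAs moved from -0.09 to -0.25 (75th percentile of detected miRNAs) and -0.26 (no normalization). Dim partner arms limit what can be said of them.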
